A study of Mus musculus with 18 samples.

Results

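The dual-specificity phosphatases Dusp1, Dusp4, Dusp5, Dusp6 and Dusp10, the Sprouty genes Spry1, Spry2 and Spry4, and Spred1 were followed across mouse ovaries that lacked or kept a functional copy of Pik3cd. They make up 9 of the 18193 genes that the array annotation names by a single symbol. A gene was represented by the probe set annotated to its symbol alone with the highest mean signal over all 18 arrays. The remaining probe sets of Dusp10, Spry2, Spry4 and Spred1 served as a check, and the other members have 1 probe set each. All 9 genes passed the filter on low signal, as did 12713 genes in all.

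Mitogen-activated protein kinases (MAPKs) carry signals from growth factor, cytokine and stress receptors to the nucleus. The ERK branch runs from receptor tyrosine kinases through Ras, Raf and MEK. Dual-specificity phosphatases switch MAPKs off by removing phosphate from both a threonine and a tyrosine of the activation loop, whereas Sprouty and Spred proteins act upstream and restrain the passage of the signal from receptors and Ras to Raf. Many of these inhibitors are themselves transcribed in response to MAPK activity, which closes a negative feedback loop. In the ovary, gonadotropins raise cAMP in granulosa cells, and luteinizing hormone releases EGF-like factors that activate ERK before ovulation.

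RNA from whole ovaries of females labelled as 21 days old, of a C57B6J/S129 background, was hybridised to Affymetrix Mouse Genome 430 2.0 arrays, 3 per group. The sample titles do not say whether day 21 is the day of injection or of collection. An age difference between treated and untreated ovaries therefore cannot be told apart from treatment. The groups were Pik3cd-/- and Pik3cd+/- mice, each taken 44 hours after a single intraperitoneal 10 IU dose of PMSG (pregnant mare serum gonadotropin, a hormone with FSH-like and LH-like activity), 72 hours after the first of 3 daily 0.03 ml injections of oestradiol (E2), or without treatment. Every mouse carried at least 1 mutant Pik3cd allele, so no wild-type ovary was measured, and no vehicle-injected group is among the 6. Pik3cd encodes the p110 delta catalytic subunit of phosphoinositide 3-kinase; the labels do not say which part of the gene was altered, in which cells, or whether a replicate was 1 mouse or a pool.

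The probe set of Pik3cd that separated the genotypes most, 1453281_at, had a lowest, median and highest signal of 19.1, 23.8 and 28.8 in the 9 Pik3cd-/- ovaries and of 61.4, 69.8 and 73.1 in the 9 Pik3cd+/- ovaries. Of its 6 probe sets, 2 were lower in Pik3cd-/- ovaries in all 3 states and 4 did not pass the test in any, and which of them lie in the altered part is not given. All 8 granulosa, 7 theca and steroidogenic and 10 oocyte markers passed the filter, with no signal of 0 on any array. Median signals of the arrays lay between 48.4 and 50.9 intensity units, and each array was left out in turn. In addition, 3 arrays were left out together, chosen after seeing the data and by no fixed rule: replicate 1 of the PMSG-treated Pik3cd+/- group (a summed oviduct signal of 4691, against a group median of 616), replicate 2 of the untreated Pik3cd-/- group (granulosa, 18555 against 28494) and replicate 3 of the E2-treated Pik3cd-/- group (oocyte, 15677 against 27776). Other arrays lay as far from their group, such as 1 of the untreated Pik3cd+/- group in oviduct genes (1898 against 640) and 1 of the E2-treated Pik3cd-/- group in macrophage genes (1352 against 4005). With 3 arrays a group, their number sets the precision of each estimate. Signals are in linear intensity units and depend on each probe set's own sequences, so levels are compared between groups and not between genes. Differences are on the scale of log2(signal + 8.58), ± SE of a limma model of all 18 arrays, and a gene was called at an adjusted p under 0.05 over the 12713 genes.

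The 3 promoters below are those of the members with a called difference for which a sequence could be printed, 250 bases upstream of the RefSeq start in GRCm38.p6, each written 5′ to 3′ on the strand of its gene. Capitals mark matches, on either strand, to the cAMP response element TGACGTCA, its short form TGACG, and the CArG box bound by serum response factor, which were searched together with the AP-1 site TGANTCA, the FoxO core GTAAACA, the E-box CACGTG and the GC box GGGCGG.
Dusp1, minus strand of chr17:26508473-26508722
Dusp1 promoter: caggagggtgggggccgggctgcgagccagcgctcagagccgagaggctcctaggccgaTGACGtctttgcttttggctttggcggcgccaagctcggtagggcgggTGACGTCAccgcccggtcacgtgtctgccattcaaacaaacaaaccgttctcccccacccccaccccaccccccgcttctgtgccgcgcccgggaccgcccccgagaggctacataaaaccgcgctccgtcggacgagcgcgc
Dusp5, plus strand of chr19:53528895-53529144
Dusp5 promoter: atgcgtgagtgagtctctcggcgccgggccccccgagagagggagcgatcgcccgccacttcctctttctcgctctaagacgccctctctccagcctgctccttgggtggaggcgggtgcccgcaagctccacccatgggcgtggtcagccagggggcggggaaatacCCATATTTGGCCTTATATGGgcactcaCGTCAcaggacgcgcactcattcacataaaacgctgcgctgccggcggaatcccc
Spry1, plus strand of chr3:37639697-37639946
Spry1 promoter: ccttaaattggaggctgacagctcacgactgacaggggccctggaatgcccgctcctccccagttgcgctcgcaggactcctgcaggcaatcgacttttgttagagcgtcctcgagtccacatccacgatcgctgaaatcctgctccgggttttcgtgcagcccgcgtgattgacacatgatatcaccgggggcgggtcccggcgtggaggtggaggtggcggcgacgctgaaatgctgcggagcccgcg
Dusp1 holds a full cAMP response element starting 143 bases before the start, which 1.55% of 32851 mouse promoter windows of this length also hold. It also has 3 matches to TGACG, 2 of them inside the full element, against 17.8% of windows with at least 1, and 1 E-box, as in 6.02% of windows. Dusp5 holds 2 CArG boxes next to each other, at 82 and 72 bases before the start (1.47% of windows have at least 1), and 1 TGACG. In Spry1 none of the cAMP response, AP-1, FoxO, E-box and CArG letters occurs in this window, and 1 GC box does. Dusp1 holds 3 GC boxes and Dusp5 holds 1, and 32.7% of windows have at least 1. A match describes letters and not a bound site.

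PMSG was followed by the largest difference in the set. In Pik3cd+/- ovaries Dusp1 rose and Spry1 fell, 2 of 9 members called, where 17.7% of all tested genes were called (5.81% higher and 11.9% lower). In Pik3cd-/- ovaries no member was called by limma after PMSG, where 2.39% of all genes were. There 2 of 9 members had an unadjusted p under 0.05, against 19.0% of all genes. In Pik3cd+/- ovaries 5 of 9 did, against 33.1% of all genes. The arrays of PMSG-treated and untreated mice did not overlap for 5 of 9 members in Pik3cd+/- ovaries (40.0% of all genes) and for 4 of 9 in Pik3cd-/- ovaries (26.8% of all genes). The change in Dusp1 was the only member difference of at least 2-fold among the 9 comparisons of 2 groups.

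Dusp1 (chr17:26505591-26508472) encodes a nuclear phosphatase and is an immediate early gene, induced by growth factors, cAMP and stress, whose product acts on p38, JNK and ERK. Its signal was 546, 624 and 536 on the PMSG-treated Pik3cd-/- arrays and 560, 998 and 524 on the PMSG-treated Pik3cd+/- arrays. After E2 it was 487, 421 and 524 in Pik3cd-/- and 374, 311 and 451 in Pik3cd+/- ovaries. Without treatment it was 405, 487 and 444 in Pik3cd-/- and 324, 301 and 310 in Pik3cd+/- ovaries. The PMSG arrays of both genotypes thus lay above every untreated array, and among untreated ovaries all Pik3cd-/- arrays lay above all Pik3cd+/- arrays. In Pik3cd+/- ovaries PMSG was followed by a log2 difference of 1.07 ± 0.19 (95% interval 0.67 to 1.47, limma adjusted p = 0.00249), a 2.10-fold rise on that scale. The single highest array carries part of this value: without replicate 2 of the PMSG group the difference was 0.78 and remained called. In Pik3cd-/- ovaries the difference from untreated was 0.35 ± 0.19 (adjusted p = 0.327), smaller by 0.72 than in Pik3cd+/- ovaries. The test of that difference between genotypes, the interaction, gave -0.72 ± 0.27 with an unadjusted p of 0.0149 and an adjusted p of 0.42, so a difference in response was not established. Without the same high array the interaction was -0.43.

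**Figure D1:**
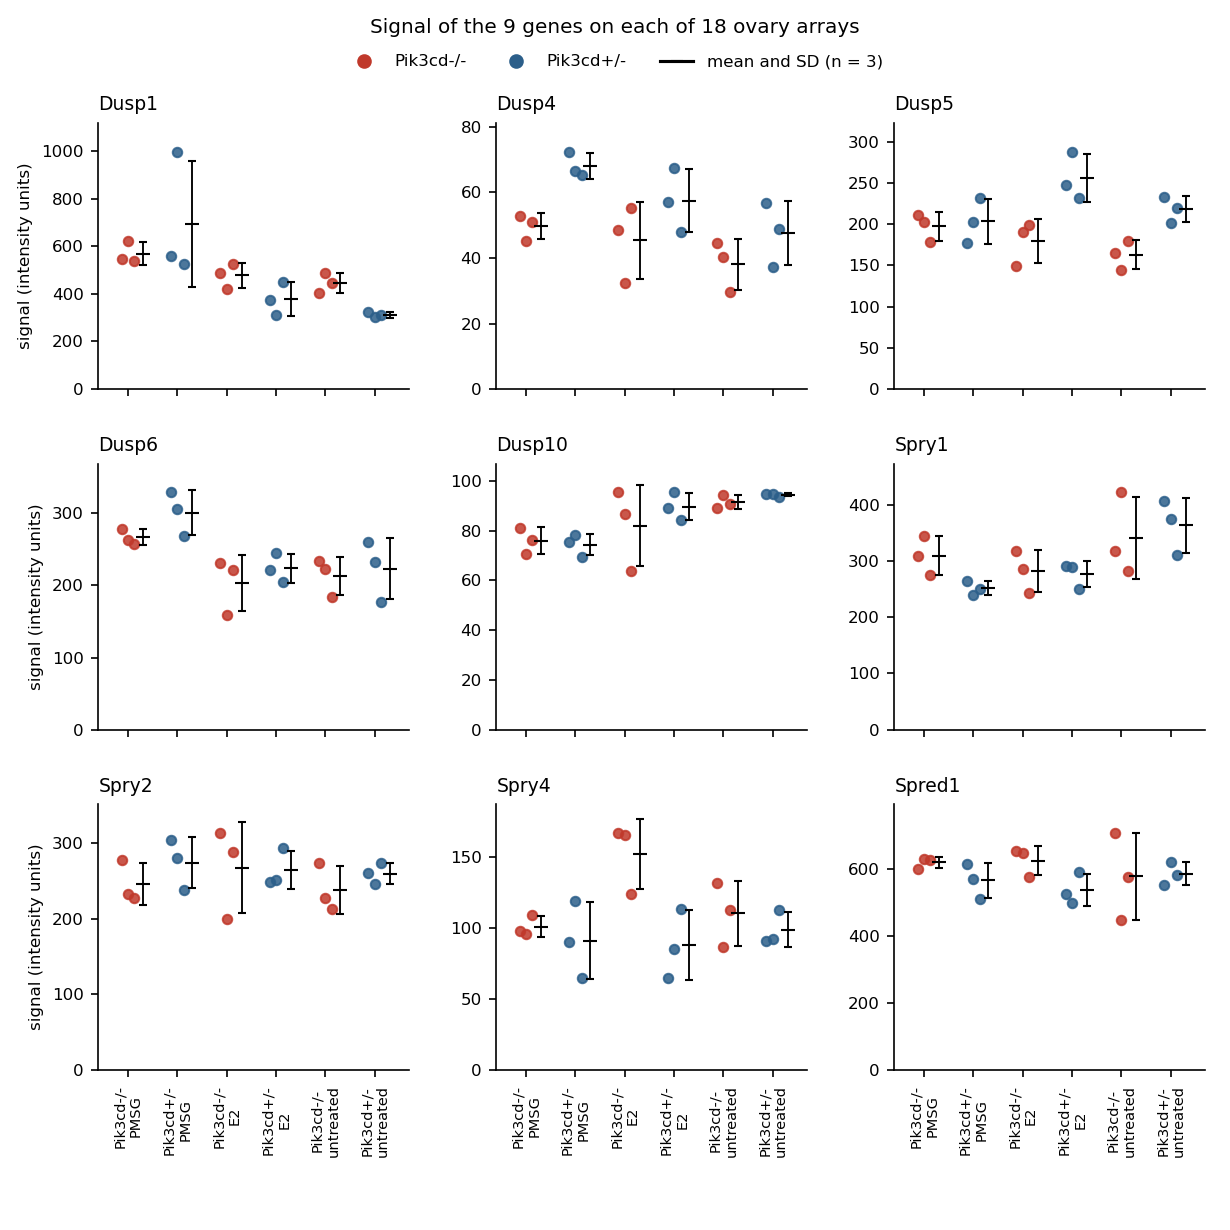
Signal in linear intensity units of each of the 9 genes on 18 ovary arrays, by genotype and treatment; points are arrays (red Pik3cd-/-, blue Pik3cd+/-) and bars give mean and SD (n = 3). Dusp1 is highest in the PMSG groups, with 1 array at 998, and Spry4 is highest in the E2-treated Pik3cd-/- group at 124 to 167.

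Among the PMSG-treated Pik3cd+/- arrays, Dusp1 was highest on replicate 2 and the sum of immediate early genes on replicate 1. The summed signal of 10 such genes that tissue handling can also induce, among them Fos, Jun and Egr1, was 7497, 6465 and 4925 on the PMSG-treated Pik3cd+/- arrays, against 4626, 4562 and 3711 on the untreated ones. Among Pik3cd-/- arrays it was 4241, 3549 and 3555 after PMSG, against 3557, 3679 and 2957 without treatment. Of the 9 tested genes of that list, 8 rose with PMSG in Pik3cd+/- ovaries (5.81% of all genes). In Pik3cd-/- ovaries 1 rose, Nr4a1, where 2.39% of all genes were called. None of the 10 was at 0 on any array, and their part in the Dusp1 result was not tested. Without treatment the Pik3cd-/- arrays were all above the Pik3cd+/- arrays for Dusp1 and all below them for the sum. The sum is weighted to the brightest genes. Gene by gene, the median genotype difference of the 9 tested genes was -0.03, against -0.01 over all genes. Only Fos was called, and it was lower in Pik3cd-/- ovaries (2.17% of all genes were called).

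Dusp1 also differed between PMSG and E2 in Pik3cd+/- ovaries. The PMSG ovaries were taken 44 hours after a single injection and the E2 ovaries 72 hours after the first of 3. Agent, time and number of injections therefore cannot be told apart. The difference was as follows for Dusp1. The PMSG arrays were at 524 to 998 and the E2 arrays at 311 to 451, a difference of 0.81 ± 0.19 (limma adjusted p = 0.012). It was the only member called there (1 of 9, against 11.2% of all genes), and the call was lost without replicate 2 of the E2 group (adjusted p = 0.0694). Without replicate 2 of the PMSG group, the array at 998, the difference was 0.52 and remained called (adjusted p = 0.0371). In Pik3cd-/- ovaries no member was called between PMSG and E2 by limma, where 4.11% of all genes were. There 2 of 9 had an unadjusted p under 0.05, against 19.1% of all genes, and in Pik3cd+/- ovaries 4 of 9 did, against 27.7%. Arrays did not overlap between PMSG and E2 for 4 of 9 members in Pik3cd+/- ovaries (31.8% of all genes) and for 3 of 9 in Pik3cd-/- ovaries (26.1% of all genes).

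Spry1 (chr3:37639947-37644599), which encodes a membrane-associated inhibitor of growth factor signalling to Ras and ERK, moved the other way. Its signal after PMSG was 310, 345 and 276 in Pik3cd-/- and 265, 241 and 251 in Pik3cd+/- ovaries. After E2 it was 318, 287 and 244 in Pik3cd-/- and 292, 290 and 251 in Pik3cd+/- ovaries. Untreated ovaries had 319, 424 and 282 in Pik3cd-/- and 408, 375 and 311 in Pik3cd+/- mice. In Pik3cd+/- ovaries every PMSG array and every E2 array was below every untreated array; in Pik3cd-/- ovaries all groups overlapped. The fall with PMSG in Pik3cd+/- ovaries was -0.51 ± 0.14 (95% interval -0.81 to -0.21, limma adjusted p = 0.0232). It lost its call without replicate 1 or 2 of the untreated group or replicate 2 of the PMSG group (adjusted p = 0.111, 0.0751 and 0.08). After E2 the difference in Pik3cd+/- ovaries was -0.38 ± 0.14 and was not called (adjusted p = 0.187).

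Markers of other cell types moved with PMSG as well. Of 7 theca and steroidogenic markers 3 rose in Pik3cd-/- ovaries (median difference 1.59), where 2.39% of all genes were called. In Pik3cd+/- ovaries 4 rose and 1 fell (median 1.60), where 5.81% of all genes rose and 11.9% fell. Cyp11a1 and Cyp17a1, enzymes of steroid synthesis, were called in both genotypes. The summed signal of the 7 markers was 30679 to 36240 after PMSG, against 14367 to 19714 without treatment, in Pik3cd-/- ovaries, and 28277 to 37495, against 16712 to 19417, in Pik3cd+/- ovaries. Like the Dusp1 signal, this sum was higher on every PMSG array than on every untreated array in both genotypes. Both were also higher on every PMSG array than on every E2 array of the same genotype. The E2 sums were 12927 to 14076 in Pik3cd-/- and 10677 to 16037 in Pik3cd+/- ovaries. The summed signal of 10 oocyte markers in Pik3cd+/- ovaries was 8749 to 10155 on the PMSG arrays, against 17230 to 18400 on the untreated ones, and 9 of 10 fell (11.9% of all genes). Of 10 macrophage markers 5 rose (5.81% of all genes), with sums of 2572 to 5119 on the PMSG arrays, against 1870 to 2098 on the untreated ones. In whole ovaries, fewer cells of a type and less RNA per cell cannot be told apart, and the part of these shifts in the Dusp1 and Spry1 results was not tested. Without the 3 arrays left out together the differences were 1.19 for Dusp1 and -0.55 for Spry1, both called.

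Dusp4, Dusp6 and Dusp10 had PMSG arrays apart from the untreated arrays in both genotypes without reaching the threshold in either. Dusp4 (chr8:34807610-34819894), a nuclear phosphatase that is itself induced by ERK, had 52.8, 45.1 and 51.1 after PMSG, against 44.6, 40.3 and 29.5 without treatment, in Pik3cd-/- ovaries. Among Pik3cd+/- arrays it had 72.5, 66.6 and 65.2 after PMSG, against 56.9, 37.3 and 48.7 without treatment. Its PMSG arrays were the higher ones each time, by 0.33 ± 0.17 in Pik3cd-/- and 0.46 ± 0.17 in Pik3cd+/- ovaries (limma adjusted p = 0.308 and 0.074). Dusp4 and Spry1 are the 2 members whose PMSG arrays did not overlap between the genotypes, with Dusp4 the lower (-0.40 ± 0.17) and Spry1 the higher (0.29 ± 0.14) in Pik3cd-/- ovaries, neither called (adjusted p = 0.233 and 0.311). Same-numbered arrays of these 2 groups deviated together from their group means, and in a fit of the PMSG arrays alone with the replicate number as a block Dusp4 was called (-0.40 ± 0.10, limma adjusted p = 0.0494) where 8.51% of all genes were. In that fit without the block it was called too (adjusted p = 0.0451), and with the block in the fit of all 18 arrays it was not (adjusted p = 0.227).

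Dusp6 (chr10:99263231-99267489) encodes a cytoplasmic phosphatase selective for ERK and is used widely as a readout of ERK activity. It had 279, 263 and 258 after PMSG, against 233, 222 and 184 without treatment, in Pik3cd-/- ovaries. Among Pik3cd+/- arrays it had 330, 306 and 268 after PMSG, against 260, 232 and 178 without treatment. The PMSG arrays were again the higher ones, by 0.32 ± 0.15 in Pik3cd-/- and 0.43 ± 0.15 in Pik3cd+/- ovaries (limma adjusted p = 0.258 and 0.0565).

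Dusp10 (chr1:184034381-184075636), whose product prefers p38 and JNK over ERK, ran lower after PMSG. It had 81.2, 70.7 and 76.2 after PMSG, against 89.3, 94.6 and 90.8 without treatment, in Pik3cd-/- ovaries. Among Pik3cd+/- arrays it had 75.5, 78.1 and 69.6 after PMSG, against 94.9, 94.9 and 93.8 without treatment. The differences were -0.24 ± 0.11 and -0.31 ± 0.11 (limma adjusted p = 0.236 and 0.0562). The untreated Pik3cd+/- arrays lay within 1.14 intensity units of each other.

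Spry2 (chr14:105891947-105896819), a second Sprouty inhibitor, and Spred1 (chr2:117121071-117182279), which brings the Ras-inactivating protein neurofibromin to the membrane, varied least between groups on their brightest probe sets. Spry2 ran from 199 to 314 over the 18 arrays and its group means from 238 to 274. Spred1 ran from 448 to 708, and its group means from 538 to 624. Its group means ran wider on the dimmer probe sets 1423162_s_at (227 to 336) and 1460116_s_at (238 to 415). Group membership accounted for 15.5% of the variance of Spry2 and 24.5% of that of Spred1 on the log2 scale, against 74.7% for Dusp1, 69.8% for Dusp5 and a median of 55.0% over all tested genes. Over the 9 members, 43 of the 45 pairs of groups next to each other in mean level had overlapping arrays. Such pairs are the closest ones by choice, and the same count over all genes was not made. The 2 pairs without overlap were the PMSG-treated and E2-treated Pik3cd-/- groups for Dusp1 and the PMSG-treated Pik3cd-/- and E2-treated Pik3cd+/- groups for Dusp6.

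**Figure D2:**
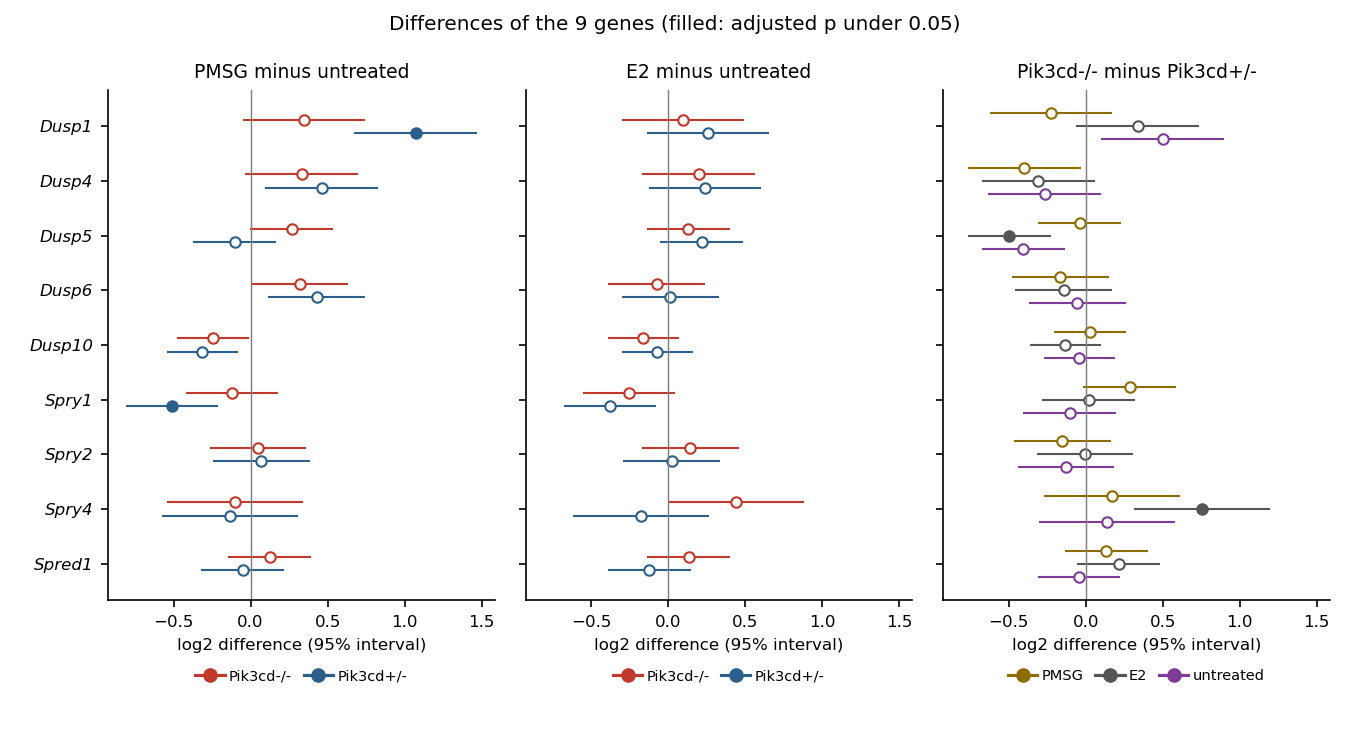
Log2 differences of the 9 genes with 95% intervals: PMSG minus untreated, E2 minus untreated (Pik3cd-/- red, Pik3cd+/- blue) and Pik3cd-/- minus Pik3cd+/- (PMSG, E2, untreated); filled points have an adjusted p under 0.05. The 4 filled points are Dusp1 at 1.07 and Spry1 at -0.51 with PMSG in Pik3cd+/- ovaries, and Dusp5 at -0.49 and Spry4 at 0.75 between genotypes after E2.

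E2 changed no member past the threshold on its brightest probe set. In Pik3cd+/- ovaries the 9 differences from untreated lay between -0.38 (Spry1) and 0.26 (Dusp1), with no call by limma where 1.62% of all genes were called, 1 member at an unadjusted p under 0.05 and 1 of 9 with arrays that did not overlap (28.7% of all genes). In Pik3cd-/- ovaries the differences lay between -0.25 (Spry1) and 0.44 (Spry4), with no call where 0.0551% of all genes were called. There 1 of 9 members had an unadjusted p under 0.05 (14.6% of all genes) and 0 of 9 were without overlap (13.3% of all genes). The 95% intervals extended up to 0.44 to either side of a difference, and changes within them were not resolved.

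Between genotypes the called differences came after E2, with Dusp5 lower and Spry4 higher in Pik3cd-/- ovaries: 2 of 9 members were called, where 16.8% of all genes were (4.85% higher and 12.0% lower in Pik3cd-/-). The arrays of these 2 members did not overlap between genotypes (2 of 9, against 33.4% of all genes). No member was called between genotypes by limma in untreated ovaries, where 2.17% of all genes were, or after PMSG, where 4.13% were. An unadjusted p under 0.05 was reached by 2 of 9 members in untreated ovaries (20.4% of all genes) and by 1 of 9 after PMSG (17.8% of all genes). After E2 it was reached by 2 of 9 (34.5% of all genes). Arrays of 2 members did not overlap between genotypes without treatment (26.5% of all genes), and of 2 after PMSG (27.9% of all genes).

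Dusp5 (chr19:53529145-53541809) encodes a nuclear phosphatase specific for ERK. After E2 its signal was 149, 191 and 199 in Pik3cd-/- and 247, 288 and 232 in Pik3cd+/- ovaries. Without treatment it was 164, 144 and 180 in Pik3cd-/- and 233, 202 and 220 in Pik3cd+/- ovaries. After PMSG it was 211, 203 and 178 in Pik3cd-/- and 176, 203 and 231 in Pik3cd+/- ovaries. Pik3cd-/- arrays were thus all below Pik3cd+/- arrays after E2 and without treatment, and the genotypes overlapped after PMSG. The difference was -0.49 ± 0.13 after E2 (95% interval -0.76 to -0.23, limma adjusted p = 0.0186), -0.41 ± 0.13 without treatment (adjusted p = 0.0879) and -0.04 ± 0.13 after PMSG (adjusted p = 0.917). The call after E2 was lost without replicate 1 or 2 of the Pik3cd+/- group or replicate 1 of the Pik3cd-/- group (adjusted p = 0.0516, 0.0847 and 0.0902). The change of the genotype difference with PMSG, the interaction, was 0.37 ± 0.18 and was not called (adjusted p = 0.552).

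Spry4, on chromosome 18, encodes a further Sprouty inhibitor of Ras and ERK signalling. After E2 its brightest probe set gave 167, 165 and 124 in Pik3cd-/- and 64.9, 85.5 and 114 in Pik3cd+/- ovaries. After PMSG it gave 97.8, 95.9 and 109 in Pik3cd-/- and 90.0, 119 and 64.6 in Pik3cd+/- ovaries, and without treatment 132, 86.7 and 113 in Pik3cd-/- and 91.3, 92.1 and 113 in Pik3cd+/- ovaries. The E2-treated Pik3cd-/- arrays thus lay above every array of the other groups except replicate 1 of the untreated Pik3cd-/- group. In Pik3cd-/- ovaries the PMSG arrays did not overlap the E2 arrays, with a difference of -0.54 ± 0.21 that was not called (limma adjusted p = 0.163). The genotype difference after E2 was 0.75 ± 0.21 (95% interval 0.31 to 1.19, limma adjusted p = 0.0244). It lost its call without replicate 1 or 2 of either E2 group, with an adjusted p of up to 0.12. The interaction of E2 and genotype, 0.62 ± 0.29, was not called (adjusted p = 0.683); limma called 0 of 9 members in that interaction and in that with PMSG, as it called 0% of all genes in both. Of the 9 members, 0 had an unadjusted p under 0.05 in the E2 interaction (7.27% of all genes) and 1 in the PMSG interaction (9.39% of all genes).

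Oocyte markers and immediate early genes also differed between genotypes after E2. The summed oocyte signal was 27776, 28757 and 15677 on the Pik3cd-/- arrays and 12700, 11038 and 11741 on the Pik3cd+/- arrays, with 10 of 10 genes higher in Pik3cd-/- (4.85% of all genes). The immediate early sum was 2998, 2957 and 3156 on the Pik3cd-/- arrays and 5688, 5164 and 5302 on the Pik3cd+/- arrays, with 4 of 9 tested genes lower (12.0% of all genes). Their part in the Dusp5 and Spry4 results was not tested. Without the 3 arrays left out together, among them the third of the E2-treated Pik3cd-/- arrays, the differences were -0.57 for Dusp5 and 0.89 for Spry4, both called.

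The other probe sets of Spry4 did not show its difference. The brightest, 1445669_at, gave 0.75 after E2, while 1440867_at gave -0.06, 1422021_at 0.21 and 1422020_at 0.17, none called in a fit of all 34945 probe sets with a single symbol, where 7.52% were called. On 1440867_at the E2-treated arrays had 61.1, 58.6 and 50.4 in Pik3cd-/- and 56.8, 59.0 and 62.5 in Pik3cd+/- ovaries, so the groups overlapped. Across the 18 arrays, which share the 6 groups, the brightest probe set correlated with these 3 at r = 0.05, 0.40 and 0.22. The Spry4 difference therefore rests on 1 of 4 probe sets, and the files do not say which transcripts each of them detects.

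Spred1 has 8 probe sets, and 2 of those below the brightest gave calls in that fit. On 1460116_s_at the E2-treated arrays had 459, 422 and 364 in Pik3cd-/- and 169, 237 and 307 in Pik3cd+/- ovaries, without overlap, a difference of 0.81 ± 0.23 (limma adjusted p = 0.0437 over all probe sets). The brightest Spred1 probe set, 1423160_at, gave 0.21 ± 0.13 for the same comparison and was not called (adjusted p = 0.239). The signal of 1460116_s_at correlated with that of the brightest Spry4 probe set over the 18 arrays at r = 0.90. Both have their highest group mean in E2-treated Pik3cd-/- ovaries, and this pair was picked from the probe sets of the 2 genes. The choice thus favoured a high value, and r with the group means taken out was not computed for it.

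On the other probe set, 1423162_s_at, Spred1 was lower after E2. It had 236, 211 and 235 on the E2-treated Pik3cd+/- arrays, against 376, 326 and 306 on the untreated ones, a difference of -0.54 ± 0.09 (limma adjusted p = 0.0137 over all probe sets, where 0.658% were called). On the Pik3cd-/- arrays it had 237, 237 and 212 after E2, against 325, 323 and 327 without treatment, a difference of -0.49 ± 0.09 that was not called (adjusted p = 0.0617, where 0.0572% were called). The E2 arrays were below the untreated arrays in both genotypes. After PMSG this probe set fell in Pik3cd+/- ovaries, by 0.32 on the log2 scale (adjusted p = 0.0384, where 8.33% were called), and it was higher after PMSG than after E2 in Pik3cd-/- ovaries, by 0.48 (adjusted p = 0.00979, where 1.95% were called). The brightest probe set gave -0.12 and 0.13 for E2 in Pik3cd+/- and Pik3cd-/- ovaries, and the 2 correlated at r = 0.12 over the 18 arrays. The single additional probe sets of Dusp10 and Spry2 were dimmer than the brightest ones (mean signals of 28.3 and 48.1) and were called in no comparison.

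**Figure D3:**
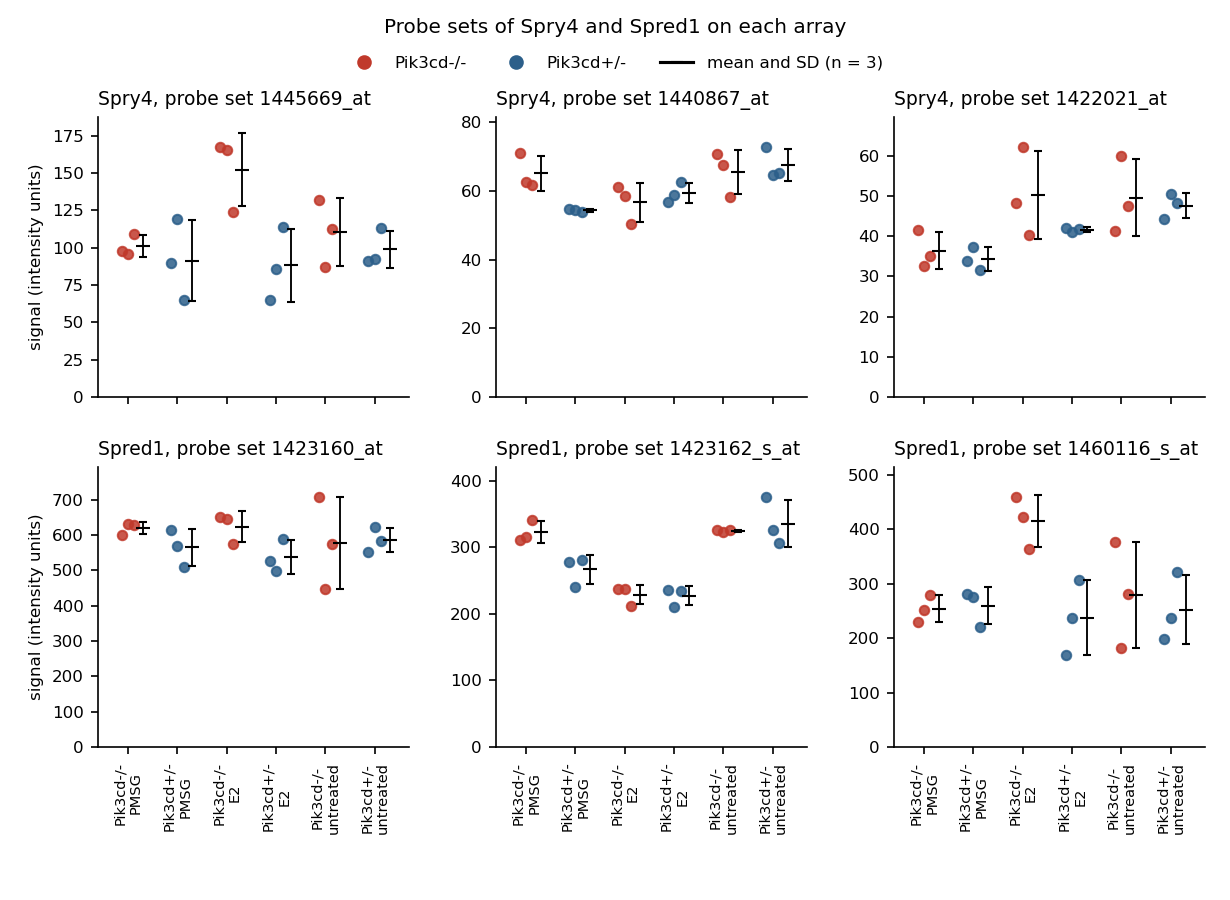
Signal in linear intensity units of 3 probe sets of Spry4 (upper row) and 3 of Spred1 (lower row) on each array, red Pik3cd-/- and blue Pik3cd+/-, with mean and SD (n = 3). The E2-treated Pik3cd-/- arrays lie above all E2-treated Pik3cd+/- arrays on 1445669_at of Spry4 and 1460116_s_at of Spred1, and overlap them on the others shown.

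On their brightest probe sets the 9 genes did not all vary together. Of their 36 pairs, 5 had r above 0.5 over the 18 arrays and 1 below -0.5, with a median of -0.06. The same counts over pairs of all genes were not made. The highest was Dusp4 with Dusp6, at 0.73 (0.69 with the group means taken out), and the lowest Dusp1 with Dusp10, at -0.64 (-0.10 with the group means taken out). Spry4 with Spred1 gave 0.65 (0.66 with the group means taken out). Outside the set, Dusp1 was most like Socs3 (r = 0.89), a feedback inhibitor of cytokine receptors, Akr1a1 (0.85), an aldehyde reductase, and Errfi1 (0.85), a feedback inhibitor of EGF receptors, over the same 18 arrays. With the group means taken out these values were 0.65, 0.47 and 0.42. Dusp5 was most like Gfpt2 (0.95), an enzyme of hexosamine synthesis, Fam83d (0.95), a protein of the mitotic spindle, and Hmmr (0.94), a hyaluronan and spindle-binding protein. Dusp6 was most like Armcx1, Trib1 and Il27ra (0.87, 0.86 and 0.86), and Dusp4 like Ttc17, Ifnar2 and Ajuba (0.85, 0.84 and 0.83). Spry1 was most like Tacc2, Fez1 and Gpc3 (0.89, 0.87 and 0.87), Spry2 like Tgfbr2, Tmod3 and Tspan12 (0.85, 0.77 and 0.77), and Dusp10 like Cep57l1, Stamos and Sft2d3 (0.87, 0.86 and 0.86). Spry4 was most like Tbc1d15, Lmo7 and Zcchc10 (0.93, 0.93 and 0.92), and Spred1 like Zfp229, Ctbp2 and Fbxl20 (0.84, 0.83 and 0.81). With the group means taken out, the values for the members other than Dusp1 lay between 0.60 (Ajuba) and 0.93 (Tacc2). All these genes were picked for their high r among the tested genes, so a high value was fixed by the choice.

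The rest of the pathway was read from lists of related genes. Among 17 tested ERK-responsive transcripts, 7 rose and 0 fell with PMSG in Pik3cd+/- ovaries (5.81% and 11.9% of all genes), with a median difference of 0.25 against -0.05 over all genes. They included the AP-1 subunits Fosl2 (1.18 ± 0.14), Fos (1.23 ± 0.25) and Junb (0.70 ± 0.12) and the immediate early gene Ier2 (0.48 ± 0.10), and this list shares 5 of its 20 genes with the immediate early list. In Pik3cd-/- ovaries 2 rose, where 2.39% of all genes were called, Fosl2 (1.00 ± 0.14) and Myc (0.66 ± 0.10), with a median of 0.11 against -0.01 over all genes. Between genotypes, 4 were lower in Pik3cd-/- ovaries after PMSG (Fos at -1.68 ± 0.25, Junb, Fosl2 and Egr2), 5 after E2 (Fos at -1.60 ± 0.25, Myc, Egr1, Egr2 and Junb) and 2 without treatment (Fos at -1.37 ± 0.25 and Myc at -0.72 ± 0.10), and none was higher. Of all genes, 4.13%, 16.8% and 2.17% were called in these 3 comparisons. Dusp1 was not among the genes lower in Pik3cd-/- ovaries: its genotype differences were -0.22 ± 0.19 after PMSG, 0.34 ± 0.19 after E2 and 0.50 ± 0.19 without treatment, none called (limma adjusted p = 0.596, 0.211 and 0.152).

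Of 11 tested further phosphatases and feedback inhibitors of receptor kinases, 1 rose and 3 fell with PMSG in Pik3cd+/- ovaries, where 5.81% of all genes rose and 11.9% fell, and the median of the 11 was -0.08 against -0.05 over all genes. Errfi1 rose in both genotypes, to 979 ± 83.2 in Pik3cd-/-, against 622 ± 104 untreated, and to 1174 ± 151 in Pik3cd+/-, against 501 ± 50.8 untreated (SD, n = 3). Its differences were 0.66 ± 0.16 and 1.21 ± 0.16 (limma adjusted p = 0.0457 and 0.000445). Il17rd, also called Sef, an inhibitor of FGF receptor signalling, fell in both genotypes (-0.45 ± 0.11 in Pik3cd-/- and -0.48 ± 0.11 in Pik3cd+/-), and Lrig1 and Dusp14 fell in Pik3cd+/- ovaries (-0.41 ± 0.10 and -0.95 ± 0.28). With E2 none of the 11 was called by limma, with 1 and 2 at an unadjusted p under 0.05 in Pik3cd-/- and Pik3cd+/- ovaries. After E2 Dusp7, a cytoplasmic ERK phosphatase, was higher in Pik3cd-/- than in Pik3cd+/- ovaries (0.47 ± 0.15).

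Upstream, 2 of 13 tested growth factors and 2 of 14 receptor tyrosine kinases were called with PMSG in Pik3cd+/- ovaries, where 17.7% of all genes were. None of either was called by limma in Pik3cd-/- ovaries, where 2.39% of all genes were, so neither count stands above that of all genes. The EGF receptor ligand Hbegf rose (0.56 ± 0.17) and Fgf8, an oocyte growth factor, fell (-0.88 ± 0.28), while the receptors Erbb2 and Egfr fell (-0.66 ± 0.14 and -0.49 ± 0.16). With E2 in Pik3cd+/- ovaries Pdgfb, Igf1r and Insr rose (0.89 ± 0.18, 0.34 ± 0.08 and 0.42 ± 0.10), where 1.62% of all genes were called. Their genotype differences after E2, which use the same E2-treated Pik3cd+/- arrays and are no separate evidence, were -0.97 ± 0.18, -0.34 ± 0.08 and -0.36 ± 0.10, and their interactions of E2 and genotype were not called (limma adjusted p = 0.742, 0.554 and 0.386). Kitl, the ligand of the oocyte receptor Kit, was higher in Pik3cd-/- ovaries without treatment (0.61 ± 0.14) and after E2 (0.93 ± 0.14). Kit was higher in Pik3cd-/- ovaries after PMSG (0.89 ± 0.21) and after E2 (0.64 ± 0.21). The oocyte sums were likewise higher there, 19332 to 21988 after PMSG in Pik3cd-/- and 8749 to 10155 in Pik3cd+/- ovaries, and their part in the Kit and Kitl results was not tested.

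None of 19 tested genes of the Ras and ERK cascade was called by limma for PMSG or E2 in either genotype, with 2 and 4 at an unadjusted p under 0.05 for PMSG in Pik3cd-/- and Pik3cd+/- ovaries and 5 in each for E2. After E2, 4 of the 19 were lower in Pik3cd-/- than in Pik3cd+/- ovaries: Braf (-0.50 ± 0.11), Gab1 (-0.48 ± 0.11), Map2k2 (-0.26 ± 0.08) and Nras (-0.24 ± 0.07), which encode a Raf kinase, a receptor adaptor, a MEK and a Ras protein. Of all genes 12.0% were lower there, and the median of the 19 was -0.08 against -0.07 over all genes. Of 15 tested JNK and p38 genes 3 fell with PMSG and 1 with E2 in Pik3cd+/- ovaries, where 11.9% of all genes fell with PMSG and 1.62% were called with E2. With PMSG their median was -0.04 against -0.05 over all genes. Mapk13, a p38 kinase, fell with both (-0.75 ± 0.15 with PMSG and -0.91 ± 0.15 with E2), and was higher in Pik3cd-/- ovaries after PMSG (0.65 ± 0.15) and after E2 (0.67 ± 0.15), comparisons that share the treated Pik3cd+/- arrays with those falls.

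**Figure D4:**
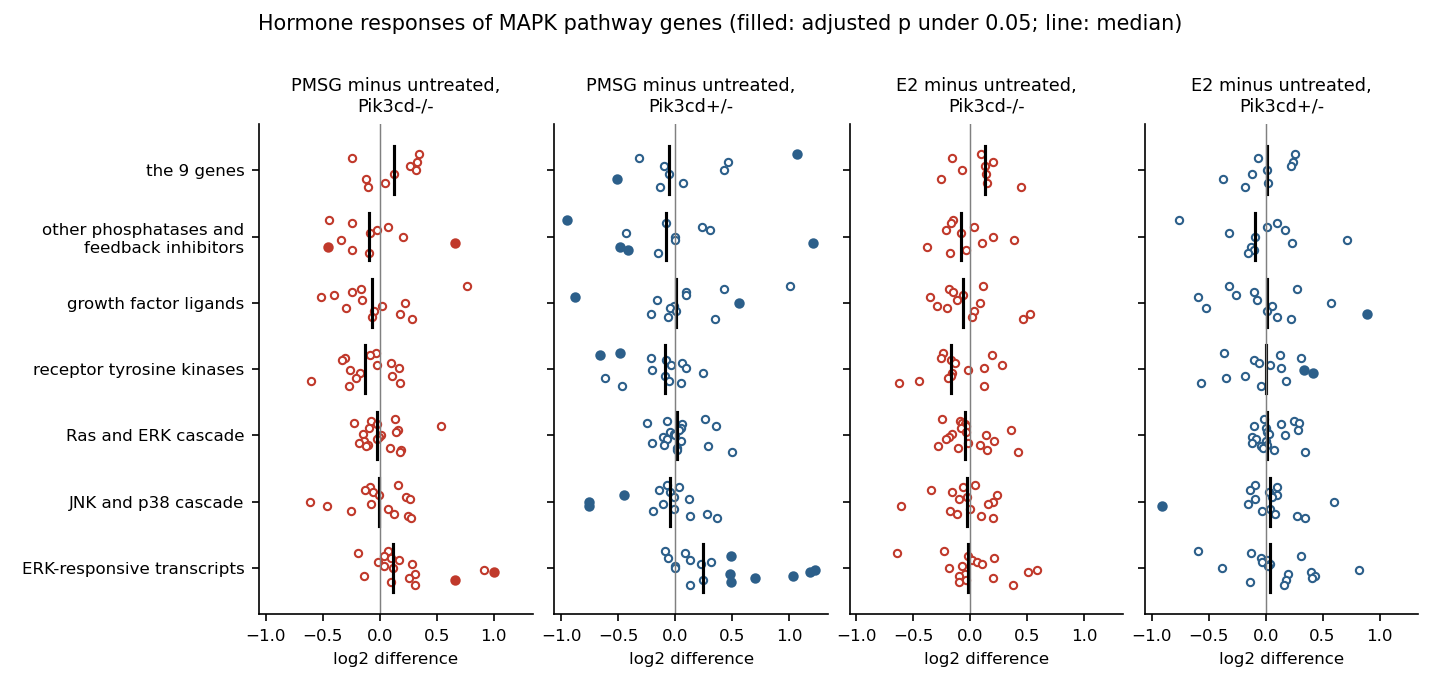
Log2 difference from untreated after PMSG and after E2 in each genotype for the tested genes of the 9 members and 6 lists of related genes; points are genes, filled at an adjusted p under 0.05, and black lines are medians. With PMSG in Pik3cd+/- ovaries 7 of 17 ERK-responsive transcripts are filled on the right (5.81% of all genes rose). In the 4 panels 0 of 19 genes of the Ras and ERK cascade are filled, where 0.0551% to 17.7% of all genes were called.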

How the data were processed

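Total RNA of whole ovaries was measured on 18 Affymetrix arrays in 6 groups of 3, taken from the labels. Each array has 1 deposited intensity (linear scale) for every probe set; the submitters' processing notes name MAS5 without a version, and the exact scaling is not given in the sources used here. No further normalization was applied. Of 45101 probe sets, 64 controls, 9160 without a symbol and 932 with several were left out. The brightest of the 34945 others stood for each of 18193 genes. Values were analysed as log2(signal + 8.58), the 10th percentile of all values being the pseudocount, which understates changes of dim genes. Genes with at least 1 group mean above the median of 5.87 were tested. The fit used limma 3.58.1 in R 4.3.3 with a mean for each of the 6 groups (trended eBayes; 12 residual and 3.66 prior degrees of freedom) and was checked on simulated data. The 11 comparisons were PMSG, and likewise E2, against untreated by genotype, Pik3cd-/- against Pik3cd+/- in the 3 states, 2 treatment-by-genotype interactions, and PMSG against E2 by genotype. Tests were two-sided, with Benjamini-Hochberg adjustment over 12713 genes. Intervals and p-values rest on the spread between 3 arrays a group. Comparisons that share a group of arrays are not independent of each other. The labels do not say that replicate numbers pair the arrays. Deviations from the group means of same-numbered arrays correlated at 0.25 to 0.30 in all 3 pairs of the PMSG-treated Pik3cd-/- and Pik3cd+/- groups. Different numbers gave -0.26 to -0.04, but the 3 deviations of a group cancel out. Where same-numbered arrays correlate positively, negative values for different numbers therefore follow and are no separate support for pairing. These groups were picked as the only 1 of 15 pairs of groups with every same-number value over 0.1, and their comparison was also fitted as paired. In the other 14 pairs of groups at least 1 of 3 pairs was not over 0.1.

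The members and gene lists were chosen with earlier results of these data known. Named were all members, the called genes of each list (at most 4 per direction, by adjusted p), and the 3 genes most correlated with each member, clone names left out; fewer list members were named, a choice made after their values were seen. Promoters are RefSeq's, on GRCm38.p6, and were matched for 7 of 9 members. The alternatives changed the pseudocount (1, 64), the filter (none, 70th percentile), the normalization (quantile), the eBayes prior (no trend) and the arrays fitted (only the 2 or 4 groups compared), or added the replicate number as a block, used the probe set of highest variance or every other probe set of a member (except 1445228_at of Spred1, whose mean signal of 6.30 is under the pseudocount), or left out each array. Chosen after seeing the data were leaving out 3 arrays together and the block in a fit of the PMSG arrays alone.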

Additional observations from a re-analysis of the deposited data

How the results depend on the processing

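Of 99 member differences 5 were called, and 1632 of 1785 alternative values kept direction and side of the threshold. Another sign appeared in 124 values of 55 differences; 49 of the 124 came from another probe set and 61 from leaving out 1 array. Of the 5 called differences, Dusp1 with PMSG in Pik3cd+/- ovaries was called in 16 of 16 alternatives (0.78 to 1.24), Spry1 there in 13 of 16, Dusp1 between PMSG and E2 in 14 of 16, Dusp5 after E2 in 12 of 16 and Spry4 after E2 in 10 of 18. Members called between genotypes after E2 were 1 with the filter at the 70th percentile, which Spry4 does not pass, and 0 with only the groups of the comparison. Between PMSG and E2 in Pik3cd+/- ovaries 2 were called after quantile normalization and 0 with only the groups of the comparison, and between genotypes after PMSG 1, Dusp4, with only the groups of the comparison, with and without the replicate block; the cause was not tested. Leaving out 1 array gave 1 to 3 members with PMSG in Pik3cd+/- ovaries, 0 to 2 between genotypes after E2 and 0 to 1 between PMSG and E2 in Pik3cd+/- ovaries.

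Of the 25 differences with an unadjusted p under 0.05 or a call in some setting, 7 changed sign, in 18 values, and of all sign changes 1 was called, Spred1 on 1423162_s_at. Spred1 with PMSG in Pik3cd+/- ovaries was 0.061 with 1460116_s_at, also the probe set of highest variance, 0.022 with 1443652_x_at, and -0.11 to 0.018 with 1 array left out. Spred1 with E2 in Pik3cd+/- ovaries was 0.049 with 1452911_at. Spred1 between genotypes after E2 was -0.00067 with 1423161_s_at, -0.054 with 1428777_at and -0.032 with 1452911_at. Spred1 between PMSG and E2 in Pik3cd-/- ovaries was 0.20 with 1423161_s_at, 0.48 with 1423162_s_at, 0.067 with 1428777_at, and -0.066 to 0.023 with 1 array left out. Spry4 with E2 in Pik3cd-/- ovaries was -0.0031 with 1422020_at and -0.18 with 1440867_at; with 1440867_at it was also -0.062 between genotypes after E2 and 0.18 between PMSG and E2 in Pik3cd-/- ovaries.

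With the replicate block, 3 members were called with PMSG in Pik3cd+/- ovaries, Dusp6 being added (0.43, limma adjusted p = 0.0394). Over all 45 pairs of arrays with the same number the correlations ran from -0.34 to 0.34 (11 over 0.1), against 29 of 90 pairs with different numbers over 0.1. In the PMSG arrays alone, the block gave 1058 calls between genotypes over all genes, against 980 without it. Over all tested genes, leaving out 1 array gave 872 to 2410 calls with PMSG in Pik3cd+/- ovaries (2255 with all arrays), 646 to 2971 between genotypes after E2 (2141), 82 to 384 after PMSG (525), 1 to 678 without treatment (276), 86 to 386 with PMSG in Pik3cd-/- (304), 33 to 110 with E2 in Pik3cd+/- (206), 2 to 24 with E2 in Pik3cd-/- (7), and 613 to 1661 and 235 to 1363 between PMSG and E2 in Pik3cd+/- and Pik3cd-/- ovaries (1423 and 522). Dusp4 and the dimmer probe sets lie nearest to the background.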
